A study of Mus musculus with 32 samples.

Results

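The RNA decay and microRNA silencing factors were taken by symbol from the table of reads on combined 3′UTRs. They are the numbered genes of the Cnot, Exosc, Dcp, Edc, Xrn, Upf, Smg, Pabpc and Ago families with Dcps, Pan2, Pan3 and the Tnrc6 genes, without pseudogenes. The rule found 54 of the 44081 genes in the table: 12 of deadenylation, 7 poly(A)-binding proteins, 6 of decapping, 2 5′-3′ exonucleases, 10 subunits of the RNA exosome, 10 of nonsense-mediated decay and 7 Argonaute and TNRC6 genes. The rule uses symbols and no measured value, but it was written with earlier results of these data known.

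Decay of most mRNAs in the cytoplasm starts when the CCR4-NOT and PAN2-PAN3 complexes shorten the poly(A) tail, which is covered by the cytoplasmic poly(A)-binding proteins. The body is then degraded from the 5′ end after removal of the cap, by XRN1, or from the 3′ end by the exosome. Argonaute proteins loaded with a microRNA recruit TNRC6 proteins, which bring in the same deadenylases, and nonsense-mediated decay uses UPF and SMG proteins to remove mRNAs whose translation ends too early. In dendrites, microRNAs and decay factors are known as regulators of locally translated mRNAs.

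The data were 32 libraries from 16 single hippocampal neurons of embryonic day 18 C57BL/6 mice, grown for 15 days in culture. The dendrites of each neuron were severed, and soma and dendrites were aspirated and sequenced separately, so that each neuron gave 1 dendrite and 1 soma library. No treatment or genetic change was applied. Polyadenylated RNA went through 3 rounds of aRNA amplification (repeated in vitro transcription) in 4 neurons (neurons 1 to 4) and 2 rounds in the other 12, always the same number in both compartments.

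Dendrites held 646521 to 6954420 reads on 3′UTRs (median 1605714) and somas 925525 to 21169974 (median 6165691), without molecular identifiers. The dendrites of neurons 15 and 16 had the fewest genes with at least 10 reads, 1570 and 2485, where the median dendrite had 6052.5. Mitochondrially encoded genes took a median of 13.5% of dendrite and 1.05% of soma reads. Summed interneuron markers (Gad1, Gad2, Slc32a1) ranged from 1737 to 11316 counts per 1000000 reads (CPM) in dendrites and from 1126 to 19881 in somas. Summed markers listed as pyramidal (Grin1, Map2, Neurod6, Camk2a, Slc17a7) ranged from 395.3 to 6916 and from 101.5 to 2423. Reads of both lists were thus found under the label of hippocampal neuron. Single markers were not compared, so the type of a neuron is not read from these sums.

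The first question was which of these genes differed in level between the dendrites and the soma of the same neuron. Of the 54 genes, 48 had a read in at least 16 libraries and were tested with edgeR's quasi-likelihood test, with neuron as a block and Benjamini-Hochberg adjustment over all 10880 genes tested. The log2 fold changes below are dendrites over somas, on counts scaled by the trimmed mean of M-values (TMM), and CPM values use the same scaling. A call is an adjusted p of at most 0.05.

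Higher levels in somas were called for 8 of the 48 genes (16.7%), where 5.71% of all genes tested were called in that direction. These were Upf2, Smg9, Exosc1, Exosc7, Exosc3, Edc3, Cnot11 and Cnot6l. No gene was called higher in dendrites, where the background was 0.827%. At an unadjusted p under 0.05, 20 of the 48 were lower in dendrites (background 26.7%) and 0 were higher (background 3.55%). DESeq2 called 33 of the 48 higher in somas (background 46.2%) and 0 higher in dendrites (background 4.26%).

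Over the 48 genes the fold changes had a median of -2.76 on the log2 scale, beside -1.49 over all genes tested. Thus the whole table lay towards the somas under this scaling, and a fold change is also given here relative to the median gene. Relative to that median gene, 39 of the 48 lay lower in dendrites and 9 higher, and the median of the 48 was 1.27 below it. Only Cnot4 and Xrn1 had a fitted log2 fold change above 0, where 21.2% of all genes tested did. Both values were smaller than their standard errors, and that of Xrn1 was -0.058 with RLE scaling and that of Cnot4 -2.53 with spike-in scaling.

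**Figure D1:**
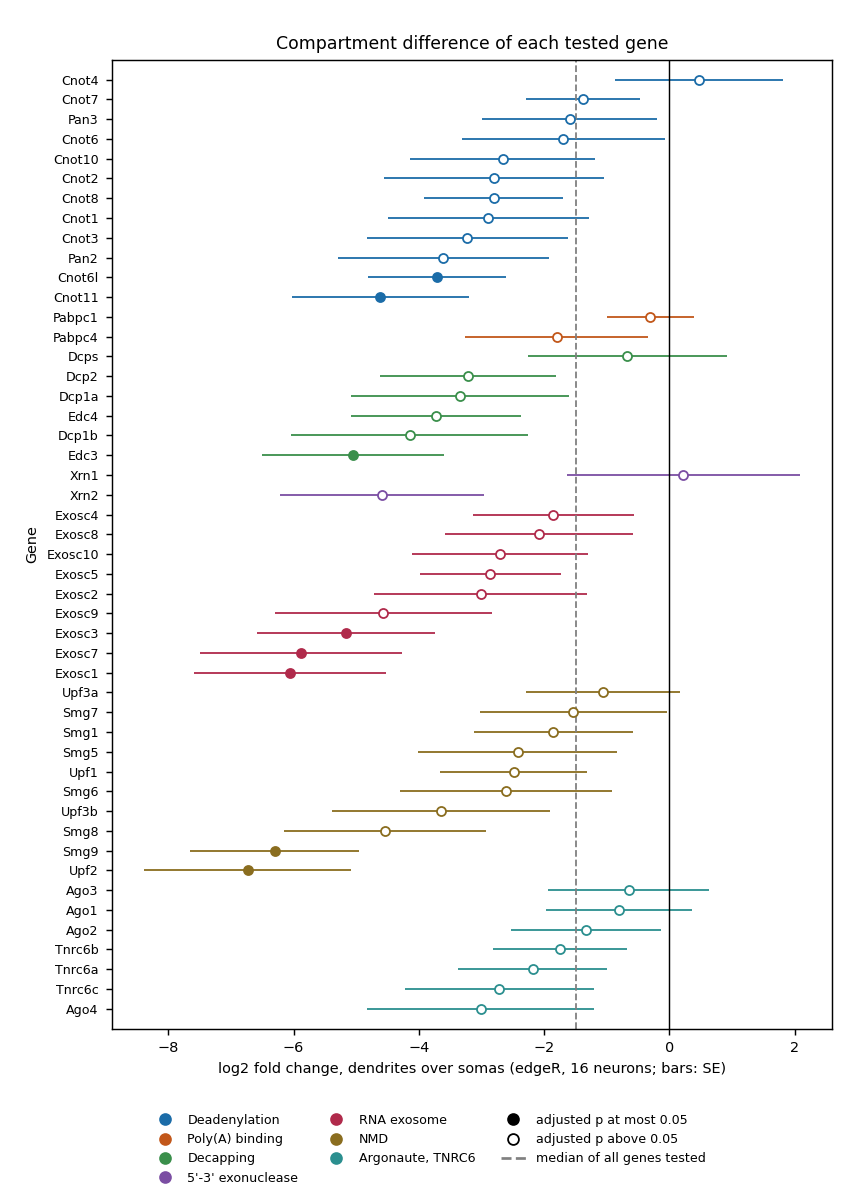
Fitted log2 fold change of each of the 48 tested genes (x axis, dendrites over somas, 16 neurons), grouped by role, with bars of 1 standard error. Filled points had an adjusted p of at most 0.05, and the dashed line is the median of all genes tested. All 8 filled points lie left of the dashed line, and the bars of Cnot4 and Xrn1 cross 0.

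Nonsense-mediated decay held the genes with the lowest 2 fold changes, Upf2 and Smg9, while its median lay above those of decapping, the exosome and deadenylation. Of its 10 genes, all tested, 2 were called higher in somas and 8 did not pass, with a median log2 fold change of -2.55. Upf2 (chr2:5951469-6056703, mm10), the adaptor between the helicase UPF1 and the UPF3 proteins, ranged from 0 to 49.2 CPM in dendrites (median 0) and from 0 to 400.1 CPM in somas (median 15.5). Reads of Upf2 were found in 4 dendrites and 13 somas. The ranges overlapped. The dendrites of neuron 11 held 244 of the 258 dendrite reads, and those of neuron 2 held 12 while its soma held none. Upf2 had a log2 fold change of -6.73 ± 1.65 (SE, n = 16, edgeR adjusted p = 0.0162), with the soma higher in 12 of the 14 neurons with reads. Counted on exons instead, Upf2 had reads in 12 dendrites and 15 somas, and its log2 fold change of -2.53 was not called (edgeR adjusted p = 0.211).

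Smg9 (chr7:24399619-24422778, mm10), a partner of the SMG1 kinase, ranged from 0 to 10.6 CPM in dendrites (median 0) and from 0 to 38.2 CPM in somas (median 9.17). It had 16 reads over 4 dendrites against 1739 over 15 somas. In neuron 3 alone the dendrites were higher, at 10.6 against 9.58 CPM, and the soma was higher in the other 14 neurons with reads. For Smg9 it was -6.30 ± 1.35 (SE, n = 16, edgeR adjusted p = 0.0103).

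Smg1, the kinase that phosphorylates UPF1 and the gene of this group with the most reads, ranged from 0 to 361.6 CPM in dendrites (median 13.0) and from 0 to 178.9 CPM in somas (median 54.5). Dendrites were higher in 6 of 16 neurons, and the highest library of all was the dendrite library of neuron 13. Smg1 had a log2 fold change of -1.85 ± 1.28 (SE, n = 16, edgeR adjusted p = 0.306). Upf3a, a UPF3 paralog with a role in this pathway, had the highest fold change of the group at -1.06 ± 1.23 (SE, n = 16, edgeR adjusted p = 0.546). It ranged from 0 to 147.0 CPM in dendrites (median 12.4) and from 0.108 to 174.6 CPM in somas (median 21.5), and 8 neurons were higher in each compartment.

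The exosome group was the one with the most calls. It had 3 called of 9 tested, all higher in somas, and all 9 lay below the median gene (median log2 fold change -3.01). Exosc1 (chr19:41922292-41933423, mm10), a cap subunit of the complex, ranged from 0 to 17 CPM in dendrites (median 0) and from 0 to 229.8 CPM in somas (median 32.2). The dendrites of neurons 2, 5 and 13 held 11, 22 and 17 reads, and 9 dendrites held none. The soma was higher in 15 of the 15 neurons with reads, although the ranges overlapped between neurons. Exosc1 had a log2 fold change of -6.06 ± 1.54 (SE, n = 16, edgeR adjusted p = 0.0182).

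Exosc7 (chr9:123113215-123136129, mm10), a subunit of the hexameric ring, ranged from 0 to 47.7 CPM in dendrites (median 0) and from 0 to 67.6 CPM in somas (median 20.4). Neuron 13 was the exception, with its dendrites at 47.7 and its soma at 28.1 CPM, and the soma was higher in the other 13 neurons with reads. For Exosc7 the log2 fold change was -5.88 ± 1.61 (SE, n = 16, edgeR adjusted p = 0.0248), and -5.19 with exon counts (edgeR adjusted p = 0.0523). Exosc3 (chr4:45316613-45342732, mm10), a second cap subunit, had reads in 3 dendrites and 13 somas.

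Levels of Exosc3 ranged from 0 to 26.3 CPM in dendrites (median 0) and from 0 to 34.5 CPM in somas (median 3.21). The dendrite reads came mainly from neuron 5 (34 of 39), whose soma held none. Exosc3 had a log2 fold change of -5.17 ± 1.42 (SE, n = 16, edgeR adjusted p = 0.0251), and -5.04 with exon counts (edgeR adjusted p = 0.0543).

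Other ring subunits did not pass the test. Exosc9, with the most reads of the group, ranged from 0 to 312.3 CPM in dendrites (median 2.55) and from 0 to 378.8 CPM in somas (median 76.8). Its dendrites were low in most neurons but above the soma in neurons 5, 6, 10, 12 and 14, and the log2 fold change was -4.57 ± 1.73 (SE, n = 16, edgeR adjusted p = 0.0824). Exosc4, the highest of the group at -1.85 ± 1.29 (SE, n = 16, edgeR adjusted p = 0.311), ranged from 0 to 262.7 CPM in dendrites (median 2.09) and from 0.183 to 127.6 CPM in somas (median 8.84). The highest dendrite value of Exosc4 was in neuron 15, with 397 of 685 dendrite reads.

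In decapping, 1 gene of 6 was called and the median log2 fold change was -3.54. Edc3 (chr9:57708540-57752499, mm10), an activator of decapping and a scaffold of P-bodies, ranged from 0 to 54.8 CPM in dendrites (median 0.386) and from 0.453 to 95.6 CPM in somas (median 18.2). All 16 somas and 8 dendrites had a read, and in neuron 11 the order was turned, with 54.8 CPM in dendrites and 0.453 in the soma. The log2 fold change was -5.05 ± 1.45 (SE, n = 16, edgeR adjusted p = 0.0307), with the soma higher in 14 of 16 neurons. Edc3 kept the call in 6 of the 16 fits that left out 1 neuron and lost it with exon counts (-4.16, edgeR adjusted p = 0.0637).

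Dcp2, the decapping enzyme, ranged from 0 to 85.7 CPM in dendrites (median 1.83) and from 1.09 to 88.1 CPM in somas (median 26.1). It was higher in dendrites in neurons 2, 8, 13 and 14 and the log2 fold change of -3.22 ± 1.41 (SE, n = 16, edgeR adjusted p = 0.121) did not pass. Dcps, the scavenger enzyme that hydrolyses the cap left over after 3′-5′ decay, ranged from 0 to 114.9 CPM in dendrites and from 0 to 18.4 CPM in somas, with medians of 0 and 0.832. Dendrites of neurons 6, 9, 11 and 14 were well above their somas while 10 dendrites had no read. The log2 fold change of Dcps was -0.67 ± 1.59 (SE, n = 16, edgeR adjusted p = 0.782).

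The 5′-3′ exonucleases stood apart in their fitted values, though neither was called. Xrn2, the nuclear enzyme, ranged from 0 to 176.7 CPM in dendrites (median 0.470) and from 0 to 139.6 CPM in somas (median 48.4). It was higher in the soma in 11 of 15 neurons with reads, with a log2 fold change of -4.59 ± 1.63 (SE, n = 16, edgeR adjusted p = 0.0689). Xrn1, the cytoplasmic enzyme, ranged from 0 to 120.0 CPM in dendrites (median 2.22) and from 0 to 77.0 CPM in somas (median 3.37). Its dendrites were higher in 8 of 15 neurons with reads, including all 4 neurons with 3 rounds, and the log2 fold change was 0.23 ± 1.85 (SE, n = 16, edgeR adjusted p = 0.942). The difference between Xrn1 and Xrn2 was not tested.

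Among the 12 deadenylation genes, all tested, 2 were called higher in somas, and the median log2 fold change was -2.81. Cnot11 (chr1:39534992-39546889, mm10), a subunit of the CCR4-NOT scaffold, ranged from 0 to 80.3 CPM in dendrites (median 1.07) and from 0 to 108.8 CPM in somas (median 24.9). Dendrites were higher only in neurons 5 and 7, and the soma in 13 neurons. Cnot11 had a log2 fold change of -4.62 ± 1.42 (SE, n = 16, edgeR adjusted p = 0.0412). It kept the call in 4 of the 16 fits that left out 1 neuron and lost it with exon counts (-4.28, edgeR adjusted p = 0.0716). Cnot6l (chr5:96070333-96164171, mm10), one of the catalytic deadenylases of the complex, ranged from 0 to 304.2 CPM in dendrites (median 3.44) and from 9.83 to 403.6 CPM in somas (median 71.0). The highest dendrite and the highest soma library were both of neuron 8, and only neuron 9 was higher in dendrites, at 105.6 against 35.5 CPM. For Cnot6l the log2 fold change was -3.71 ± 1.10 (SE, n = 16, edgeR adjusted p = 0.0358). Its call was kept in 7 of the 16 fits that left out 1 neuron and lost with exon counts (-3.02, edgeR adjusted p = 0.119).

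Cnot7, another deadenylase of the complex and the gene of this group with the most reads, ranged from 0 to 547.2 CPM in dendrites (median 96.7) and from 53.5 to 361.0 CPM in somas (median 167.7). The dendrites were more spread than the somas (SD 161.6 against 81.8 CPM), with no read in neurons 13 and 15 and the highest level in neuron 16. Its log2 fold change was -1.38 ± 0.91 (SE, n = 16, edgeR adjusted p = 0.286). Cnot4 (chr6:35022065-35133724, mm10), the ubiquitin ligase of the complex, ranged from 0 to 332.6 CPM in dendrites (median 26.6) and from 0 to 117.5 CPM in somas (median 22.3). It had a read in 15 dendrites and 15 somas, 8 neurons were higher in each compartment, and the 3 highest libraries were dendrites, of neurons 8, 1 and 10. Cnot4 had a log2 fold change of 0.48 ± 1.34 (SE, n = 16, edgeR adjusted p = 0.815).

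**Figure D2:**
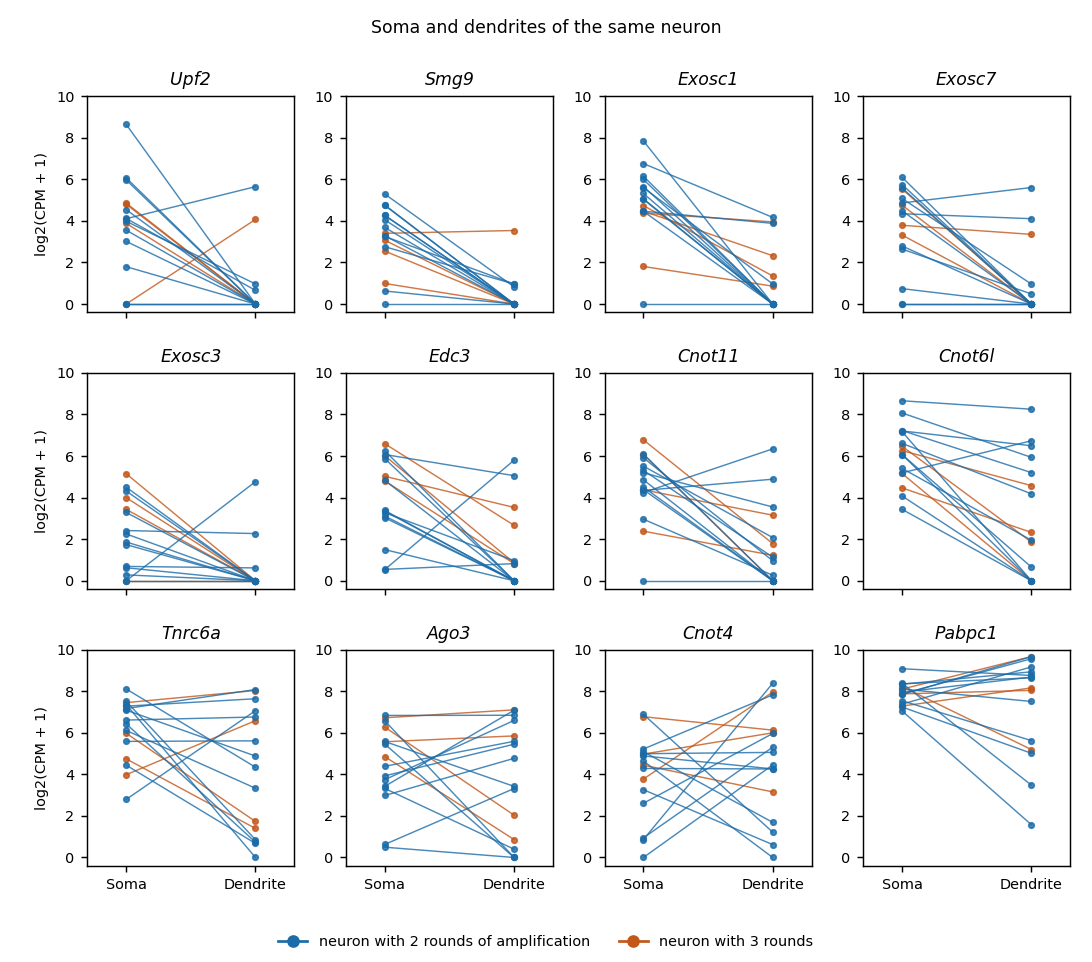
Level of 12 genes, log2(CPM + 1), in the soma and the dendrites of each neuron (lines join the 2 libraries of a neuron; colour gives the rounds of amplification). For the 8 called genes most lines fall from soma to dendrite, many of them to 0 or near it, though fewer for Cnot6l. Tnrc6a, Ago3, Cnot4 and Pabpc1 have many lines in both directions.

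Only 2 of the 7 poly(A)-binding protein genes passed the filter, and neither was called. Pabpc1 (chr15:36595661-36609668, mm10), the main cytoplasmic poly(A)-binding protein, had reads in all 32 libraries and ranged from 1.99 to 811.2 CPM in dendrites (median 342.4) and from 131.7 to 540.3 CPM in somas (median 239.8). The dendrites fell on both sides of the somas, with 9 of 16 neurons higher in dendrites and 4 dendrite libraries (neurons 4, 9, 16 and 13) above every soma. Pabpc1 had a log2 fold change of -0.30 ± 0.70 (SE, n = 16, edgeR adjusted p = 0.773), which lay 1.19 above the median gene and turned to 0.10 with exon counts. Pabpc4, a paralog, ranged from 0 to 201.2 CPM in dendrites (median 2.82) and from 0 to 54.2 CPM in somas (median 13.1). Its highest dendrite, in neuron 4, stood far above the next at 30.7 CPM, and the log2 fold change was -1.80 ± 1.46 (SE, n = 16, edgeR adjusted p = 0.383).

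The other 5 had few reads. Pabpc1l had 1 read in 1 soma. Pabpc2 had reads in 3 dendrites and 3 somas, Pabpc4l in 2 and 3, and Pabpc5 in 2 and 5. Pabpc6 was the only one with reads in more dendrites than somas, 6 against 2, and its 286 dendrite reads came mainly from neurons 11, 14 and 6 (194, 62 and 27). These genes are paralogs and the authors counted uniquely mapped reads, so their values are given as uncertain, and the similarity of their 3′UTRs was not examined. Exosc6 was the sixth gene without a test, with 0 reads on its 3′UTR in all 32 libraries.

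The microRNA effectors lay nearest to the median gene among the groups with more than 2 genes tested. None of the 7 Argonaute and TNRC6 genes was called by edgeR, where 5.71% of all genes tested were called higher in somas. None passed at an unadjusted p under 0.05 either (background 26.7% lower and 3.55% higher in dendrites). DESeq2 called 3 of the 7 higher in somas, where its background was 46.2%. Their median log2 fold change of -1.75 was 0.25 below the median gene. Tnrc6a (chr7:123123885-123195296, mm10), a scaffold that joins Argonaute to the deadenylases and the gene of this group with the most reads, ranged from 0 to 269.7 CPM in dendrites (median 23.9) and from 5.93 to 275.2 CPM in somas (median 91.0). Dendrites of neurons 1, 2, 5, 6, 7, 8 and 9 were higher than their somas, and the reverse held in the other 9. The log2 fold change was -2.18 ± 1.19 (SE, n = 16, edgeR adjusted p = 0.202).

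Ago3, an Argonaute protein, had the highest fold change of the group, -0.65 ± 1.29 (SE, n = 16, edgeR adjusted p = 0.736). It ranged from 0 to 136.5 CPM in dendrites (median 18.0) and from 0.409 to 113.0 CPM in somas (median 23.9), with dendrites higher in 9 neurons. Ago4, another Argonaute protein, had the lowest, -3.01 ± 1.81 (SE, n = 16, edgeR adjusted p = 0.244). Its levels ranged from 0 to 17.8 CPM in dendrites (median 0) and from 0 to 85.1 CPM in somas (median 3.67), with reads in 7 dendrites and 11 somas. Both ranges overlapped, and the difference between these genes was not tested.

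The second question was in how many neurons the dendrites held these RNAs at all. Reads in at least 15 of the 16 dendrites were found for 3 of the 48 tested genes, Pabpc1, Cnot4 and Tnrc6a, where 17.1% of all genes tested met this mark. In somas 29 of the 48 met it, where the background was 57.6%. The median tested gene of this set had a read in 10 dendrites and 15 somas, beside 11 and 15 for all genes tested. Of the 8 called genes, 6 had a read in 8 dendrites or fewer.

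Each dendrite library held a read of 10 to 45 of the 54 genes (median 28.5) and each soma library of 35 to 50 (median 45.5). Dendrites of neurons 15 and 16 were lowest, with 10 and 12 genes, and the dendrites of neurons 2 and 5 were highest with 45. Neuron 5 was the only one with more of these genes in its dendrites (45) than in its soma (36). The same held over all genes, of which its dendrites had 9871 with at least 10 reads and its soma 6889. The summed level of the 54 genes was 492.4 to 2485 CPM in dendrites (median 1701) and 1399 to 2314 CPM in somas (median 1965), and 5 neurons were higher in dendrites.

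**Figure D3:**
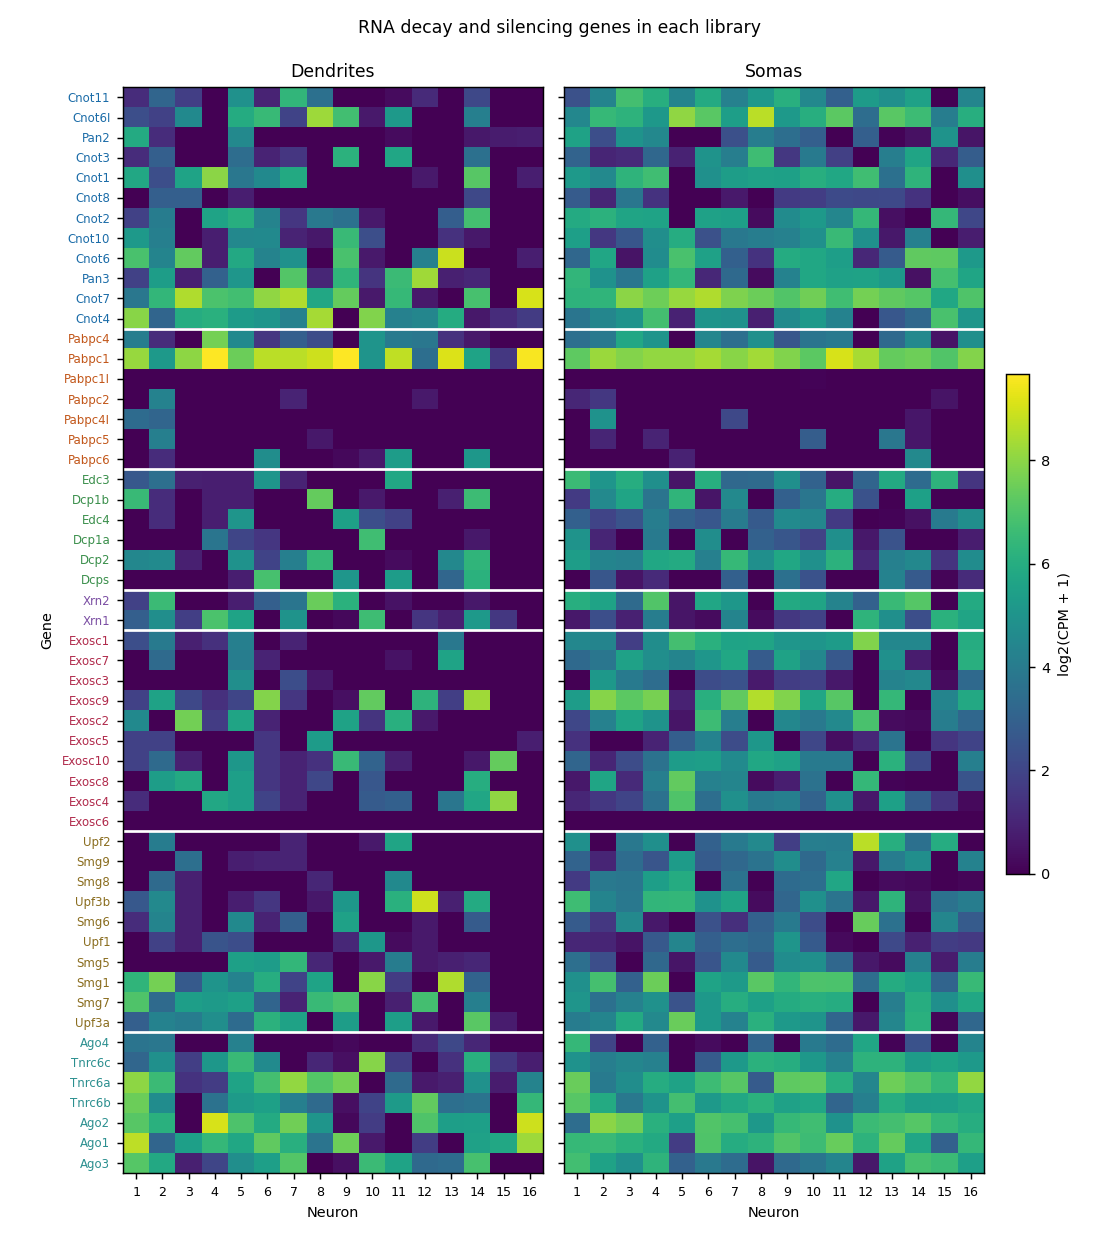
Level of each of the 54 genes (rows, by role) in the 16 dendrite and 16 soma libraries (columns, by neuron), as log2(CPM + 1). Dark cells are at or near 0; they are more common in the dendrites, most of all in neurons 15 and 16, and Pabpc1 is bright in nearly every library.

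**Figure D4:**
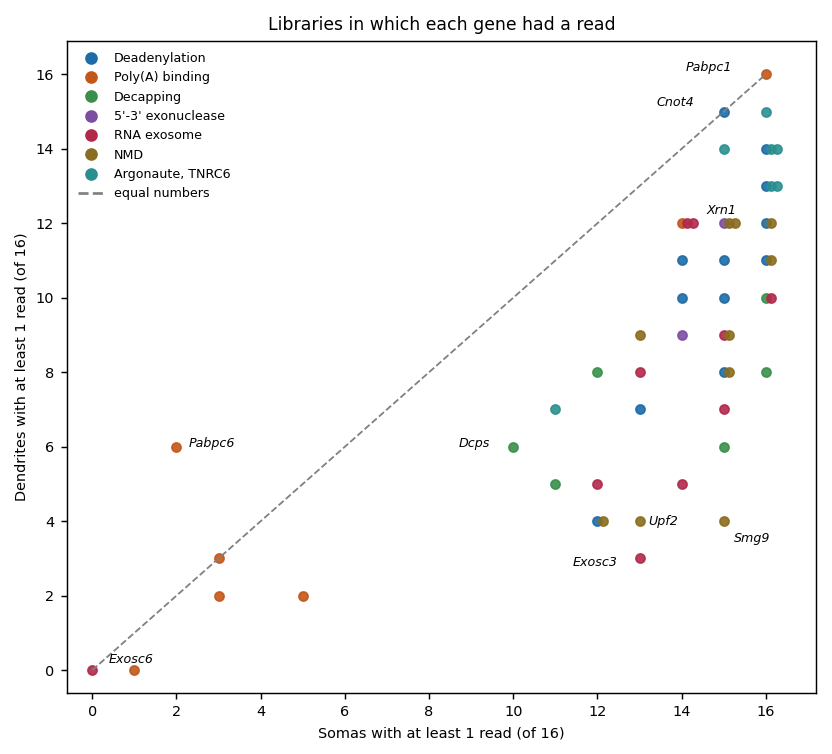
Number of the 16 somas (x axis) and of the 16 dendrites (y axis) with at least 1 read of each of the 54 genes, coloured by role, with genes at the same place shifted sideways. The dashed line marks equal numbers; Pabpc1 lies on it at 16 and 16, Cnot4 at 15 and 15, and Pabpc6 lies above it.

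The third question was whether the compartment difference depended on the rounds of amplification, the batch given in the labels. None of the 48 genes passed the edgeR test of that interaction, as was the case for 0.0% of all genes tested. At an unadjusted p under 0.05 there was 1 gene, Exosc1, where the background was 2.65%. Exosc1 had an unadjusted interaction p of 0.0258, and its log2 fold change was 6.08 higher with 3 rounds than with 2. Within the 12 neurons with 2 rounds, Exosc1, Smg9 and Upf2 were called (background 2.88%), and within the 4 neurons with 3 rounds 0 genes were called (background 0.00758%), with 4 lower (background 4.26%) and 0 higher in dendrites (background 1.37%) at an unadjusted p under 0.05.

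The calls depended on the scaling and on some neurons. The labels give a spike-in dilution of 0 for neurons 1 and 2, although the series' design text names spike-in RNA for all samples. The libraries of these neurons held 59 to 80 spike-in reads, beside 3083 to 283471 in the others, and only the other 14 neurons were scaled to the spike-in. Their exon counts scaled in this way placed 39 of 47 tested genes higher in somas by the edgeR test (background 64.4%), with a median log2 fold change of -5.22 beside -4.15 for all genes. With TMM on the same libraries 6 of 47 were called (background 5.29%). TMM values are relative to the other RNA of a library, while in the spike-in scaled values a lower level in dendrites and a smaller amount of RNA collected from them cannot be told apart. When the scaling was moved so that the median gene was near 0, Smg9 and Upf2 remained (background 0.846%), and without neurons 15 and 16 Exosc1, Smg9 and Upf2 did (background 1.68%). Leaving out 1 neuron at a time gave 2 calls without neuron 16 (background 1.16%) to 12 without neuron 5 (background 8.93%), and Smg9 and Upf2 were called each time.

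Other counts and filters also moved the number called. It was 4 with exon counts (background 2.62%), where Exosc1 and Smg9 were joined by Cnot8, a deadenylase, and Upf3b, a protein of the exon junction complex in decay. It was 5 at equal reads per neuron (background 2.75%), 9 with RLE scaling (background 9.26%) and 10 in an exact sign-flip test of log2(CPM + 1) (background 19.7%). It was 2 without the block for neuron (background 0.708%), 2 with no filter (background 0.46%) and 2 of 30 with a filter of 10 reads (background 2.55%). Exosc1 was the gene in common to the last 3 of these.

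Markers of other cells were also compared. Summed astrocyte markers reached 1675 CPM in dendrites (median 213.8) and 514.2 CPM in somas (median 191.7), and summed microglia markers 385.9 and 11.8 CPM (medians 9.26 and 0.832). Oligodendrocyte markers had medians of 8.30 and 1.59 CPM, and endothelial markers 1.70 and 0.227 CPM, with Cldn5 at 0 in every library. The RNAs Malat1, Neat1, Meg3 and Snhg11, listed as nuclear RNA of the soma, summed to a median of 515.3 CPM in dendrites (1.32 to 1793) and 1762 CPM in somas (33.3 to 11511). The part of these RNAs in the compartment differences was not tested.

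The use of alternative 3′ ends was compared where the reads allowed it. Of the 54 genes, 43 had 2 or more annotated 3′ ends in the table of individual ends, each covering the last 500 nt, and 8 had at least 10 reads on their top 2 ends in both compartments of at least 5 neurons. The share of reads on the higher-numbered end was compared with an exact signed-rank test over neurons. The table numbers the ends without coordinates, so which end is proximal is not known here. After adjustment 0 of the 3508 genes tested passed (0.0%). At an unadjusted p under 0.1, 1 of the 8 passed (background 8.44%), and at p under 0.05 none did (background 4.53%).

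That gene was Cnot6l, compared on ends 1 and 3. Its share on end 3 in dendrites was 20% in neuron 5, 2.67% in neuron 6, 54.7% in neuron 8, 0% in neuron 9 and 0% in neuron 11. In the somas of the same neurons it was 69.9%, 39.8%, 85.2%, 57.0% and 63.6%. The share was lower in dendrites in 5 of 5 neurons, with means of 15.5% ± 23.5 (SD, n = 5) and 63.1% ± 16.7 (SD, n = 5) and a difference of -47.6 points ± 13.7 (SD, n = 5). The exact two-sided p was 0.0625, the smallest that 5 neurons allow, and the adjusted p was 0.949. Reads on both ends numbered 75 to 660 in these dendrites and 367 to 1391 in the somas.

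In Cnot6, a paralog of Cnot6l, the share on the higher-numbered end was lower in dendrites by a mean of 33.2 points in 5 neurons (exact signed-rank p = 0.125), lower in 4 and equal in 1. For Cnot7, Pabpc1, Ago1, Ago2, Smg1 and Upf3a the exact p was 0.219 or above. In Ago1 the higher-numbered end took 98.7% of the dendrite reads of neuron 14 and 0% in the other dendrites, so its mean rested on that library.

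**Figure D5:**
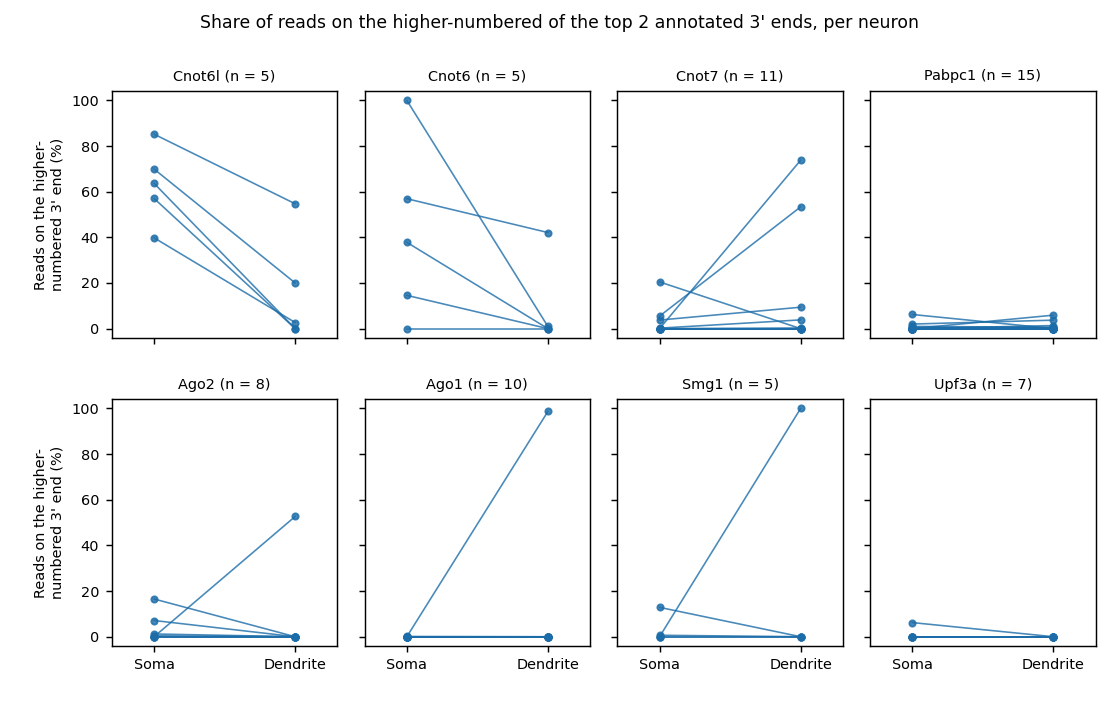
Share of reads on the higher-numbered of the top 2 annotated 3′ ends (y axis, percent) in the soma and dendrites of each neuron, for the 8 genes with enough reads (n, neurons). The 5 lines of Cnot6l all fall from soma to dendrite, while in Ago1, Ago2 and Smg1 the large changes are those of single neurons.

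Other genes of the same pathways gave the wider setting. Of 79 tested genes on 6 lists of partners, 8 were called higher in somas by edgeR and 0 higher in dendrites, beside the background of 5.71% and 0.827%, and their median log2 fold change was -2.07. Those called were Rqcd1 (an older symbol of a further CCR4-NOT subunit), Lsm3 and Pnrc1 of decapping, the nuclease Dis3l2, the exosome helicase Skiv2l2, the release factor Etf1, the ATPase Ruvbl1 and Drosha. Drosha, the nuclear enzyme that starts microRNA processing, had a log2 fold change of -5.92 ± 1.505 (SE, n = 16, edgeR adjusted p = 0.0182).

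The list of microRNA processing and silencing had a median of -0.94 over 12 genes, 0.55 above the median gene, and 1 of the 12 (Drosha) was called. Deadenylation partners lay lowest, with a median of -3.29 over 8 genes and 1 called. The decay-linked RNA-binding proteins had 0 called of 16 and a median of -1.80. Reads in at least 15 dendrites were found for 12 of the 79, of which 5 were on the microRNA list and 5 among the RNA-binding proteins, beside 17.1% of all genes tested.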

How the data were processed

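The deposited values used here are raw read counts without normalization. The authors trimmed the reads, mapped them to mm10 with STAR (version 2.4.0, per the labels) and counted uniquely mapped reads with VERSE on the combined 3′UTRs of 44081 genes, on 74532 individual 3′ ends and on the exons of 23453 genes with 92 spike-ins. Since amplified reads were counted without molecular identifiers, precision was taken from the spread between neurons. Separate neurons came from several cultures and days.

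From these counts the compartments were compared with edgeR 4.0.16 in R 4.3.3 (TMM, robust quasi-likelihood fit, neuron as a block, at least 1 read in at least 16 samples, 10880 genes, adjusted p at most 0.05). The fit had a common dispersion of 2.07, and standard errors are the fold change divided by the root of F. Alternatives used DESeq2 1.42.0, other scalings, filters and samples, and exon counts. SciPy 1.17.1, pandas 2.3.3, NumPy 2.4.6 and matplotlib 3.10.9 under Python 3.11 gave the other values and the figures. Both compartments came from the same cell, and after removal of group means dendrites and soma correlated at 0.0887 ± 0.0772 (SD, n = 16) in the same neuron and at -0.00559 ± 0.0526 (SD, n = 240) in different neurons. None of the libraries held identical counts (0 pairs). The edgeR and the signed-rank steps were also run on simulated data, whose outcome is not reported here. A gene that was not called is not thereby shown to be equal between compartments.

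The design had named the distal share of reads, but the individual ends carry no coordinates, so the higher-numbered end was used. Gene positions are from GENCODE M21 (GRCm38, the build mm10). Named with values were the genes called, those with the lowest and highest fold change and the most reads in each role, those at p under 0.1 in the 3′ end test and those read in at least 15 dendrites. The genes, lists and tests were chosen with earlier results of these data known.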

Additional observations from a re-analysis of the deposited data

Results flagged for a closer look

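Exosc6, a ring subunit of the exosome, had signal outside the main measurement. Its combined 3′UTR had 0 reads in all 32 libraries, while the exon counts held 3041 reads in 13 of the 16 somas and 168 reads in 7 of the 16 dendrites. Of the dendrite reads, 115 were in neuron 9 and 47 in neuron 3, and their somas held 868 and 52. The design has no control samples for this signal, and why the 3′UTR held no read was not tested.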

How the results depend on the processing

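No gene of the set was called higher in dendrites in any of the fits tried with edgeR, DESeq2 or the sign-flip test, which called 3 to 548 of all genes tested in that direction. The number called higher in somas was 8 with the block for neuron, with the share of all genes called in brackets (5.71%). It was 2 without the replicate block (0.708%), 2 with the median gene recentred (0.846%) and 2 with no filter (0.46%). With at least 10 reads in 16 samples it was 2 of 30 (2.55%). It was 4 with exon counts (2.62%) and 5 at equal reads per neuron (2.75%). It was 3 with 2 rounds (2.88%), 0 with 3 rounds (0.00758%) and 33 with DESeq2 (46.2%). Chosen after seeing the data, exon counts of neurons 3 to 16 gave 39 of 47 with spike-in scaling (64.4%) and 6 of 47 with TMM (5.29%). Without neurons 15 and 16, also chosen after seeing the data, it was 3 (1.68%). Leaving out 1 neuron gave 2 to 12. The count was 2 without neuron 16 (1.16% of all genes tested), 4 without neuron 1, 13 or 15 (2.89%, 2.22% and 2.23%), and 5 without neuron 4, 10, 12 or 14 (3.15%, 2.95%, 2.88% and 3.76%), beside 5.71% with all neurons. Smg9 and Upf2 were called in 16 of the 16 fits that left out 1 neuron, Exosc1 in 15, Exosc7 in 14, Exosc3 in 11, Cnot6l in 7, Edc3 in 6 and Cnot11 in 4. Without neuron 7 or neuron 8, Exosc3 did not pass the read filter and was not tested. The median log2 fold change was -1.31 with the median gene recentred, -0.49 without the block, -1.56 with 3 rounds, -5.22 with spike-in scaling and -1.45 in the sign-flip test, which compares mean log2(CPM + 1). Its distance to that of all genes was -1.27 in the main fit, -2.54 with no filter and -1.74 with 2 rounds. That distance was smaller at -0.80 with exon counts and with at least 10 reads, -0.37 in the sign-flip test and -0.27 without the block. Without the block the fold change was 0.28 for Pabpc4, 0.43 for Pabpc1, 2.29 for Dcps, 0.55 for Exosc4 and 0.11 for Ago3. Recentring gave 0.11 for Cnot7, 1.19 for Pabpc1, 0.64 for Dcps, 0.42 for Upf3a and 0.82 for Ago3. Pabpc1 was at 0.039 with at least 10 reads, 0.10 with exon counts (0.065 in neurons 3 to 16), 0.15 at equal reads, 0.23 with 3 rounds and from -0.48 to 0.22 with 1 neuron left out (0.22 without neuron 12 or 15). With 2 rounds Dcps was at 0.66 and Xrn1 at -2.06, and Xrn1 was at -0.058 with RLE scaling and from -0.30 (without neuron 5) to 0.97 with 1 neuron left out, below 0 also without neuron 2, 3, 4, 10 or 14. Dcps was at 0.37 in the sign-flip test, Smg1 at 0.057 with 3 rounds, Ago3 at 0.089 without neurons 15 and 16, and Cnot4 at -2.53 with spike-in scaling. Of the other values of named genes over the alternatives, 556 kept direction and side of the threshold, 87 lost the call and 24 gained one. With at least 8 neurons the 3′ end test at p under 0.1 gave 0 genes, since Cnot6l was no longer tested. Genes read in at least 15 dendrites fell from 3 (background 17.1%) to 1 at 10 reads and to 1 at the smallest dendrite total. The share of all genes at these stricter marks is not given here, so the drop is not read as a trait of this set. Why these values moved was not tested otherwise. Of the 8 called genes, 6 had a read in 8 dendrites or fewer, and at equal reads per neuron 5 of the 8 were still called. There Exosc3 was not tested. Cnot11 had a log2 fold change of -4.16 (edgeR adjusted p = 0.0625) and Cnot6l of -3.27 (edgeR adjusted p = 0.0684).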

Other observations

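For several of these genes the reads counted on exons differed widely from those counted on 3′UTRs in the same libraries, and exons can include regions outside the 3′UTR. Upf2 had 258 dendrite reads on its 3′UTR and 760 on exons, with reads in 4 and 12 dendrites. Cnot8, a deadenylase, had 20 dendrite and 240 soma reads on its 3′UTR but 334 and 5294 on exons, and it was called higher in somas with exon counts. The reverse was seen for Ago2, with 2337 dendrite and 10316 soma reads on its 3′UTR but 217 and 1582 on exons, and for Ago3, with 1010 and 4217 against 91 and 675. Xrn1 differed between compartments in this respect, with 525 dendrite and 2056 soma reads on its 3′UTR but 603 and 144 on exons. These genes were picked after their values were seen, and the source of the differences was not tested.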
